A study of Homo sapiens with 61 samples.

Results

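The 10 genes described here are early response genes, the genes that a neuron switches on first after activity, growth factors or stress: EGR1, EGR2, EGR3, EGR4, ARC, NR4A1, NR4A2, NR4A3, NPAS4 and IER2. They were listed by symbol and matched to gene identifiers through GENCODE 29, and all 10 were found among the 58440 genes counted in each of 2 experiments. EGR1 was selected on its measured level, which was high in untreated neurons with ATF2 knockdown, so that contrast is described here without a test, and the other contrasts with untreated Control gRNA neurons use some of the same libraries.

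Immediate early genes need no new protein to be transcribed, and their promoters are read by factors that kinases activate, among them serum response factor (SRF) with its ERK-regulated partners and the CREB and ATF family, to which ATF2 belongs. The EGR genes encode zinc finger transcription factors held in check by the corepressors NAB1 and NAB2. The NR4A genes encode orphan nuclear receptors, NPAS4 is a neuronal factor induced by calcium entry, ARC regulates AMPA receptor trafficking at synapses, and IER2 is a nuclear protein of the early response.

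The neurons, described as cortical, were made from the established human stem cell line WTC11 (induced pluripotent cells) by switching on an NGN2 cassette with doxycycline. In experiment 1 there were 4 lines: WT, a line without DLK (DLK KO), 1 without LZK (LZK KO) and 1 without either (DLK LZK double KO). DLK (MAP3K12) and LZK (MAP3K13) are kinases that signal axon damage to JNK. In experiment 2, neurons with the CRISPR interference machinery received a lentivirus carrying a scrambled guide (Control gRNA) or a guide against ATF2 or JUN, both targets of JNK. In both, neurons were given 5 nM vincristine, a drug that takes apart microtubules, or only its DMSO vehicle (labelled untreated) for 16 hours on day 14 by the series design, while the extraction protocol gives a range of days. Each group of experiment 1 had 4 libraries and each of experiment 2 had 5, except ATF2 gRNA with vincristine, which had 4. The labels do not say how many clones stood behind a line or whether libraries came from separate cultures, so p-values measure the spread between these libraries, which may be technical.

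The libraries of experiment 1 held 8410729 to 14647819 counts and those of experiment 2 held 38925807 to 88392414, so the early genes with few counts were measured with more error in experiment 1. The targeted transcripts followed the labels. Mean MAP3K12 was 19.7 to 30.3 CPM (counts-per-million, scaled for library composition) in the groups lacking DLK and 76.1 to 104 in the others, and MAP3K13 was 29.6 to 36.6 against 99.1 to 139. ATF2 was 0.526 and 0.573 CPM in the ATF2 gRNA groups against 129 to 153 in the others of experiment 2, and JUN was 2.87 and 6.43 CPM with its guide against 88.5 and 237 in Control gRNA. Summed markers of neurons lay between 10599 and 19419 CPM in every library, and those of fibroblasts under 4 CPM. Other marker sums moved with the groups. The sum of 6 genes of dividing or progenitor cells, led by NES, ran from 734 to 775 CPM in untreated WT, 923 to 1952 in vincristine WT, and 122 to 133 in the double KO; it ran from 1310 to 1401 in untreated and 2431 to 2527 in vincristine Control gRNA, and 697 to 816 in ATF2 gRNA. The sum of 3 GABA neuron genes reached 22.2 to 30.9 CPM in ATF2 gRNA and 8.98 to 10.8 in untreated double KO, where neither WT nor Control gRNA passed 1.50. The sum of 5 pluripotency genes was 52.9 to 62.2 CPM in the double KO against 1.65 to 3.35 in WT. It was 33.8 to 40.2 in untreated ATF2 gRNA against 9.58 to 13.5 in untreated Control gRNA. LIN28A and DPPA4 carried the higher sums, while POU5F1, NANOG and TDGF1 were at 1.04 CPM or less in every library. The part of these markers in the results below was not tested, and in bulk RNA fewer cells of a type cannot be told apart from less RNA per cell.

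Of the 10 genes, 7 have a promoter window in the RefSeq tables of GRCh38.p14: EGR1, EGR2, EGR4, NR4A1, NR4A3, NPAS4 and IER2, with 11 start sites in all. NR4A2, EGR3 and ARC have none. The 250 bases before the start are shown for the 3 genes with a window that differed most between untreated ATF2 gRNA and untreated Control gRNA, since ATF2 and SRF are known to bind elements of the 2 kinds marked in them. They are printed 5′ to 3′ on the gene's strand, with capitals at TGACG, the core of the cyclic AMP response element, on either strand (CGTCA where it lies on the other strand), and at CArG boxes, which SRF binds (6 A or T letters between CC and GG). The windows are EGR1 at chr5:138465229-138465478 on the plus strand, EGR2 (the third start in the table) at chr10:62816367-62816616 on the minus strand and IER2 at chr19:13150161-13150410 on the plus strand.
EGR1: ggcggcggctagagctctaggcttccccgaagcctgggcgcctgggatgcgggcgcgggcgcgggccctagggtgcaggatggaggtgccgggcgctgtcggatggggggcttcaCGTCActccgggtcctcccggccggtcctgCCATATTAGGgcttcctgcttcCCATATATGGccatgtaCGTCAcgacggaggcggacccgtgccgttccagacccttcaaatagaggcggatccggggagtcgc
EGR2: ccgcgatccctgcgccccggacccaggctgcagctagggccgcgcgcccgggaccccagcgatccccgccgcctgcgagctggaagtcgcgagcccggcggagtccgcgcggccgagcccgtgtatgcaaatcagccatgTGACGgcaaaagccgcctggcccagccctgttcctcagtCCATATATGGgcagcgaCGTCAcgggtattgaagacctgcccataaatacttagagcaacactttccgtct
IER2: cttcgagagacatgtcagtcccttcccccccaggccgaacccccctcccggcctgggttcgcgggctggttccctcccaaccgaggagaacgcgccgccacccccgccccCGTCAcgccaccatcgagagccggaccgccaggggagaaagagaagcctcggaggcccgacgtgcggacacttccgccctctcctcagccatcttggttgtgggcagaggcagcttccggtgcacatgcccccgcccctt
EGR1 held TGACG at -135 and -66 and CArG boxes at -105 and -83, counted in bases from the start site to the first base of the match. This window of EGR2 held TGACG at -110 and -54 with 1 CArG box at -71, and its other windows held neither. IER2 held TGACG at -140 only.

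TGACG was present in 7 of the 11 windows, which belong to 6 of the 7 genes. Of all 35116 RefSeq windows of this length, 21.2% held it at least once and 4.76% at least 2 times. EGR4 had it at -177 and -109 and NR4A3, a nuclear receptor, had it at -109, -91, -83 and -25, where 1.01% of all windows had 3 or more. The windows of the 2 NPAS4 starts overlap, and the first held it at -140 and -130. Neither NR4A1 window held TGACG or a CArG box. A CArG box was in 1.16% of all windows, and a pair of them, as in EGR1, in 0.0313%. None of the genes' windows held the full element TGACGTCA (1.65% of all windows), the AP-1 site TGACTCA that JUN and FOS bind (4.20%), the EGR site GCGTGGGCG (0.720%) or the NR4A site AAAGGTCA (1.05%). A match describes these letters and says nothing on binding, and an absent match says only that the letters are not in this window.

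**Figure D1:**
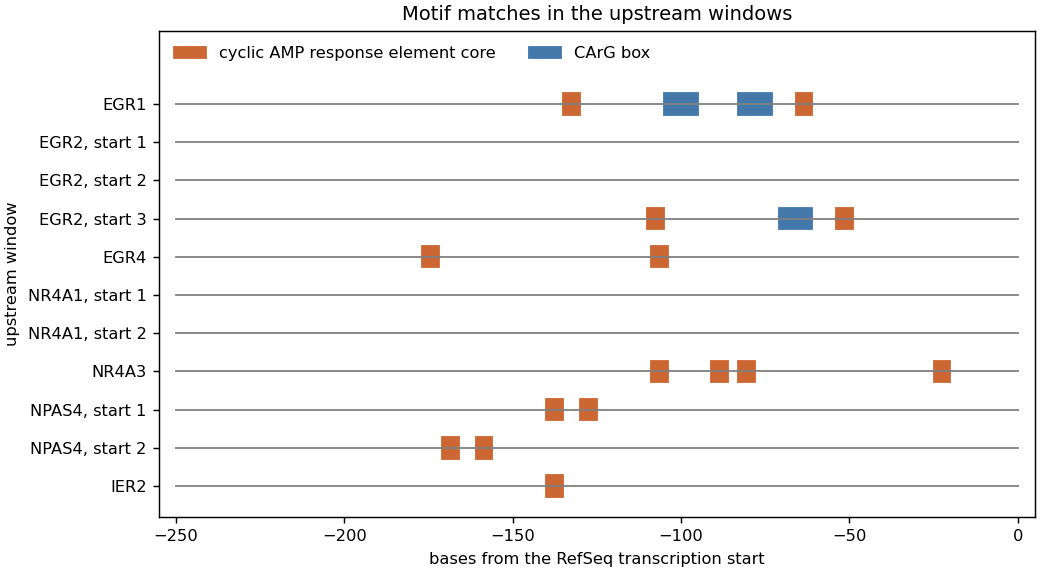
Positions of TGACG and CArG box matches (x axis, bases from the start site) in the RefSeq windows of the early genes (y axis, 1 line for each start site). EGR1 carries 2 TGACG matches with 2 CArG boxes between them, while the NR4A1 windows carry neither.

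EGR1 (ENSG00000120738.7, chr5:138465490-138469315, plus strand, GENCODE 29) rose with vincristine in WT, DLK KO and LZK KO neurons but passed no test in the double KO. Untreated WT libraries held 19.3, 17.6, 17.2 and 20.1 CPM, and vincristine WT libraries held 371, 309, 325 and 191. The groups did not overlap, and the lowest vincristine library, replicate 4, was also the lowest of its group for ARC, IER2 and NR4A3. The difference was 4.01 ± 0.16 on the log2 scale (SE, edgeR's quasi-likelihood test, Benjamini-Hochberg adjusted p = 1.03e-18). In DLK KO, EGR1 went from 25.1, 29.9, 21.0 and 25.4 CPM to 48.7, 43.9, 39.6 and 42.8, a log2 change of 0.79 ± 0.15 (adjusted p = 0.00123). In LZK KO it went from 6.60, 7.70, 6.01 and 5.30 CPM to 24.0, 32.5, 32.4 and 27.9, a log2 change of 2.19 ± 0.19 (adjusted p = 1.40e-09). The ranges were separate in both knockouts. In the double KO, untreated libraries held 6.55, 4.89, 3.69 and 3.72 CPM and vincristine libraries 4.86, 4.36, 5.64 and 4.60, which overlap (0.06 ± 0.23, adjusted p = 0.969).

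The vincristine effect on EGR1 differed from that of WT in each knockout line. The log2 difference in effect was -3.22 ± 0.21 for DLK KO (adjusted p = 3.56e-12), -1.82 ± 0.25 for LZK KO (adjusted p = 5.66e-06) and -3.96 ± 0.28 for the double KO (adjusted p = 7.14e-12); the 3 differences share the WT libraries. The untreated level was also lower than WT in LZK KO (-1.53 ± 0.19, adjusted p = 1.53e-07) and the double KO (-1.98 ± 0.20, adjusted p = 5.96e-10). In DLK KO it was higher by 0.45 ± 0.16 (adjusted p = 0.0277), a call that was lost without untreated DLK KO replicate 2 (adjusted p = 0.0962) or without untreated WT replicate 2 (0.0702) or 3 (0.0660). Ordered by level, vincristine WT stood highest (mean 299 CPM), followed by vincristine DLK KO (43.7), vincristine LZK KO (29.2), untreated DLK KO (25.4), untreated WT (18.5), untreated LZK KO (6.40) and the double KO with vincristine (4.86) and without (4.71). Among neighbours in that order, the libraries of vincristine LZK KO and untreated DLK KO overlapped, as did those of untreated LZK KO and vincristine double KO.

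With ATF2 knockdown, EGR1 stood high before any vincristine. Untreated Control gRNA libraries held 16.3, 11.4, 12.9, 13.3 and 15.3 CPM, while untreated ATF2 gRNA libraries held 564, 535, 529, 522 and 528. This is the contrast EGR1 was chosen for, and its log2 difference of 5.27 is given as a description. Vincristine ATF2 gRNA libraries held 673, 722, 706 and 751 CPM, 0.41 above the untreated ones on the log2 scale, also without a test. In Control gRNA, vincristine took EGR1 to 126, 142, 125, 126 and 119 CPM, a rise of 3.20 ± 0.11 (adjusted p = 1.94e-18). Under vincristine, EGR1 was higher in ATF2 gRNA than in Control gRNA by 2.48 ± 0.10 (adjusted p = 4.60e-17). That contrast shares no library with the one used for the choice. It does compare the same knockdown with the same control, so it is not independent of the choice.

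JUN gRNA neurons lay between. Untreated JUN gRNA libraries held 38.8, 40.4, 32.0, 39.6 and 46.7 CPM of EGR1, above every untreated Control gRNA library (1.50 ± 0.10, adjusted p = 6.69e-11). Vincristine took them to 316, 317, 330, 302 and 224 CPM, a rise of 2.92 ± 0.10 (adjusted p = 2.71e-17), and they then stood above vincristine Control gRNA by 1.22 ± 0.09 (adjusted p = 6.63e-11). The rise itself was not shown to differ from that of Control gRNA (difference -0.28 ± 0.14, adjusted p = 0.201). None of the 6 groups of experiment 2 overlapped with its neighbour in the order of EGR1 levels.

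**Figure D2:**
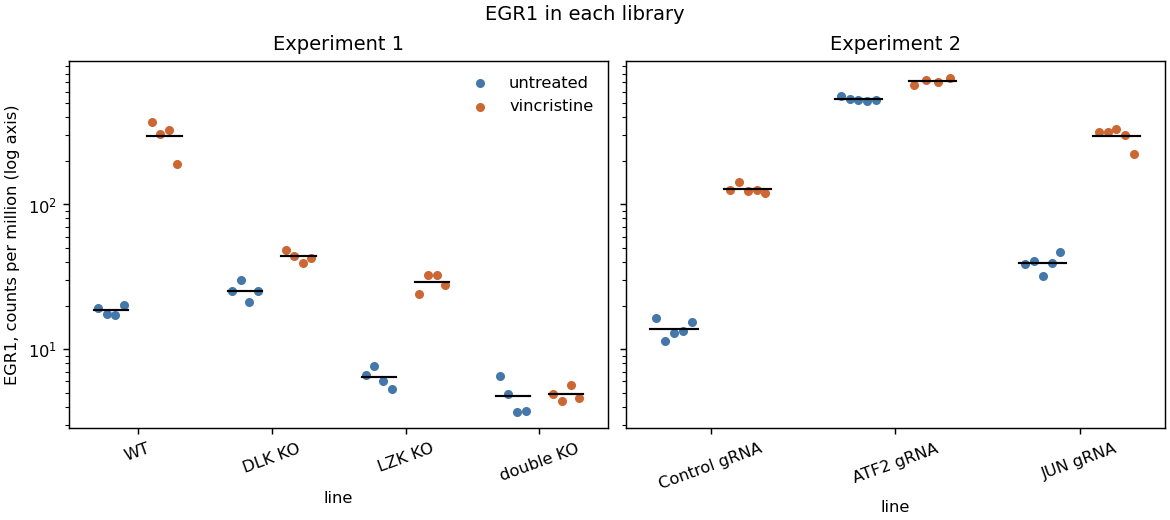
EGR1 in every library (y axis, CPM on a log scale) by group (x axis), with untreated and vincristine libraries as separate points and bars for group means. Untreated ATF2 gRNA libraries, at 522 to 564 CPM, stand above all vincristine WT and vincristine JUN gRNA libraries, and the double KO stays under 7 CPM in both treatments.

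EGR2, a paralog of EGR1 known for its role in myelinating glia and in activity responses (chr10:62811996-62919900, minus strand), was nearly silent in control neurons and present with ATF2 knockdown. Untreated Control gRNA libraries held 0, 0, 0.178, 0 and 0.0181 CPM, so that 12 of the group's 13 counts came from replicate 3. Untreated ATF2 gRNA libraries held 13.7, 11.2, 11.1, 9.52 and 10.2 CPM, and vincristine ATF2 gRNA libraries 12.9, 16.3, 18.5 and 20.4. No library of Control gRNA, which reached 0.291 CPM at most with vincristine, overlapped with them. Summed over the untreated groups and scaled for depth, the ratio of ATF2 gRNA to Control gRNA was 216 (2914 against 13 counts, exact 95% interval 126 to 405, counting error only). Under vincristine the ratio was 102 (3045 against 52 counts, 77.3 to 136). The fitted log2 differences were 7.74 ± 0.45 untreated and 6.69 ± 0.38 with vincristine (adjusted p = 1.55e-15); the untreated one was 10.52 without untreated Control gRNA replicate 3. The glial marker sum lay between 11.3 and 46.5 CPM over all libraries. Within it MBP ran from 12.1 to 43.1 CPM in experiment 1 and from 5.19 to 20.1 in experiment 2. No other gene of that list passed 6.61 CPM, and GFAP did not pass 1.22.

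JUN gRNA neurons held less EGR2. The untreated libraries had 0.408, 0.379, 0.250, 0.189 and 0.298 CPM and the vincristine libraries 2.06, 1.51, 1.98, 1.72 and 1.23, with no overlap. The summed ratio of vincristine to untreated was 5.83 (506 against 95 counts, 4.68 to 7.34), and the fitted rise was 2.50 ± 0.35 (adjusted p = 2.82e-06). Against vincristine Control gRNA the summed ratio was 10.4 (7.80 to 14.1). The untreated difference from Control gRNA was 2.53 ± 0.61 (adjusted p = 0.00533) and 5.32 without untreated Control gRNA replicate 3. The vincristine effect on EGR2 in Control gRNA was near the threshold, at 1.66 ± 0.68 (adjusted p = 0.0598), and 4.44 (adjusted p = 0.000148) without that library. It was also called without vincristine Control gRNA replicate 2 or 5 (adjusted p = 0.0181 and 0.0167), with DESeq2 (1.71, 0.0105) and with a filter at a mean of 1 CPM (1.67, 0.0371). In experiment 1 EGR2 had too few counts to test, with 14, 6, 7 and 8 counts in vincristine WT libraries, 0, 4, 2 and 6 in untreated WT, and no more than 8 in any library of the other lines.

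EGR3, a paralog that muscle spindles need to form, followed EGR2 at lower levels. It had enough counts to be tested mainly through the ATF2 gRNA groups, where it was high. Its contrasts with those groups therefore describe the gene and do not support a claim. Untreated ATF2 gRNA libraries held 1.77, 1.58, 0.860, 0.857 and 0.866 CPM and vincristine ones 1.69, 1.80, 2.72 and 2.65, where no Control gRNA library had more than 5 counts. The summed ratio of ATF2 gRNA to Control gRNA was 73.6 untreated (306 against 4 counts, 28.4 to 272) and 57.3 with vincristine (396 against 12 counts, 32.4 to 112). Vincristine JUN gRNA libraries had 9, 33, 9, 6 and 0 counts, a summed ratio to Control gRNA of 5.07 (2.69 to 10.4). That difference was called at 2.29 ± 0.84 (adjusted p = 0.0377), but it was 1.35 (adjusted p = 0.289) without JUN gRNA replicate 2, and leaving out vincristine Control gRNA replicate 1, 2, 3 or 5 also ended the call (adjusted p = 0.0546 to 0.0891). With the replicate number as a block it was 2.01 (adjusted p = 0.0934), and with DESeq2 2.36 (adjusted p = 0.0511). EGR3 reached at most 7 counts in experiment 1. EGR4 had no more than 2 counts in any library of either experiment, so no change in it could be seen at this depth. EGR3 exons overlap those of an antisense transcript, as do those of NR4A1 and IER2; the kit keeps strand, but the strand setting of the counting is not given in the sources used here.

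IER2 (chr19:13150415-13154908, plus strand) rose with vincristine in the lines of experiment 1 where EGR1 rose, and by less in each. Untreated WT libraries held 33.0, 34.9, 33.4 and 29.7 CPM and vincristine WT libraries 164, 141, 125 and 84.1, a rise of 1.97 ± 0.13 (adjusted p = 2.63e-14). The rise was 0.62 ± 0.13 in DLK KO (mean 29.9 to 46.0 CPM, adjusted p = 0.00261) and 0.79 ± 0.13 in LZK KO (32.5 to 56.5 CPM, adjusted p = 0.000136). In the double KO IER2 was at 26.5 ± 1.68 CPM untreated and 25.0 ± 3.26 with vincristine (SD, n = 4), which overlap (-0.09 ± 0.13, adjusted p = 0.915 by edgeR). The effect was lower than in WT by 1.35 ± 0.18, 1.18 ± 0.18 and 2.06 ± 0.18 log2 units in DLK KO, LZK KO and double KO. Untreated LZK KO and double KO, where EGR1 was lower than WT, were not called for IER2 (WT mean 32.7 CPM). The untreated double KO difference from WT was -0.31 (adjusted p = 0.0575 by edgeR). It passed the threshold with DESeq2 (0.0498), with no filter (0.0151) and with only these groups fitted (0.000196).

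In experiment 2, untreated Control gRNA libraries held 30.6, 38.2, 30.8, 30.9 and 29.0 CPM of IER2 and vincristine ones 88.5, 94.7, 91.0, 100.01 and 92.2 (1.55 ± 0.06, adjusted p = 7.80e-26). Untreated ATF2 gRNA libraries held 122, 119, 115, 122 and 123 CPM, above every vincristine Control gRNA library. Vincristine ATF2 gRNA libraries held 151, 149, 140 and 158 CPM, which left a rise of 0.32 ± 0.06 (adjusted p = 0.000326). The untreated difference from Control gRNA was 1.92 ± 0.06, the difference under vincristine 0.68 ± 0.06, and the effect of vincristine was smaller with ATF2 gRNA by 1.23 ± 0.08 log2 units. With JUN gRNA, IER2 rose from a mean of 37.6 to 94.1 CPM (1.33 ± 0.06). Its level under vincristine differed from Control gRNA by 0.01 ± 0.06 (adjusted p = 0.911), while untreated it was 0.24 ± 0.06 higher (adjusted p = 0.00416). The difference in effect for JUN gRNA missed the threshold at -0.22 ± 0.08 (adjusted p = 0.0533) and passed it with no filter (0.00918), with a filter at a mean of 1 CPM (0.0318), with DESeq2 (0.0377) and in 5 of the refits that left out 1 library, with the lowest adjusted p, 0.00294, without untreated Control gRNA replicate 2; the other libraries were vincristine Control gRNA replicate 1 (0.0385), untreated JUN gRNA replicates 3 (0.0425) and 4 (0.0445) and vincristine JUN gRNA replicate 3 (0.0181).

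Within experiment 1 ARC, like EGR1 and IER2, was highest in vincristine WT. In WT it went from 7.36, 5.87, 6.04 and 3.78 CPM to 35.8, 28.9, 26.4 and 16.6, with no overlap (2.22 ± 0.17, adjusted p = 6.56e-13). In DLK KO it went from a mean of 5.69 to 8.91 CPM (0.64 ± 0.19, adjusted p = 0.0365) and in LZK KO from 6.08 to 10.2 (0.75 ± 0.19, adjusted p = 0.0177). Neither call held against every library: in DLK KO it was lost without untreated or vincristine replicate 1, 2 or 4 (adjusted p = 0.0631 to 0.152), and in LZK KO without untreated or vincristine replicate 2 or 3 (0.0510 to 0.0610). The double KO stood at 2.69 ± 0.600 CPM untreated and 2.79 ± 0.220 with vincristine (SD, n = 4; log2 difference 0.06 ± 0.25, adjusted p = 0.970 by edgeR), and untreated it was lower than WT by 1.10 ± 0.22 log2 units. The effect of vincristine on ARC was smaller than in WT by 1.58 ± 0.26 log2 units in DLK KO; for LZK KO this was 1.47 ± 0.26 and for the double KO 2.16 ± 0.31.

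Untreated Control gRNA libraries held 1.93, 1.38, 1.92, 2.77 and 2.12 CPM of ARC and vincristine ones 13.0, 14.6, 12.6, 14.1 and 11.7 (2.70 ± 0.15, adjusted p = 4.70e-18). Untreated ATF2 gRNA libraries held 23.4, 18.2, 19.1, 19.1 and 20.9 CPM, again above the vincristine Control gRNA libraries, and vincristine ATF2 gRNA libraries 26.8, 28.0, 23.4 and 28.8. The highest untreated and the lowest vincristine library of ATF2 gRNA were level at 23.4 CPM. The change within ATF2 gRNA, 0.41 ± 0.14, missed the threshold (adjusted p = 0.0712), but it passed it when only these groups were fitted (0.00771), with a filter at a mean of 1 CPM (0.0465), with DESeq2 (0.0479) and without untreated ATF2 gRNA replicate 1 (0.0460). ARC was higher than in Control gRNA by 3.31 ± 0.15 untreated and 1.02 ± 0.14 with vincristine. In JUN gRNA vincristine libraries held 9.39, 9.25, 11.4, 10.8 and 5.17 CPM, all below the Control gRNA libraries (-0.52 ± 0.13, adjusted p = 0.00278), so ARC was lower with JUN gRNA where EGR1 was higher. The rise in JUN gRNA, 2.04 ± 0.15, was smaller than in Control gRNA by 0.66 ± 0.21 (adjusted p = 0.0275), a call lost without untreated Control gRNA replicate 2 (adjusted p = 0.0627) or untreated JUN gRNA replicate 5 (0.0534).

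**Figure D3:**
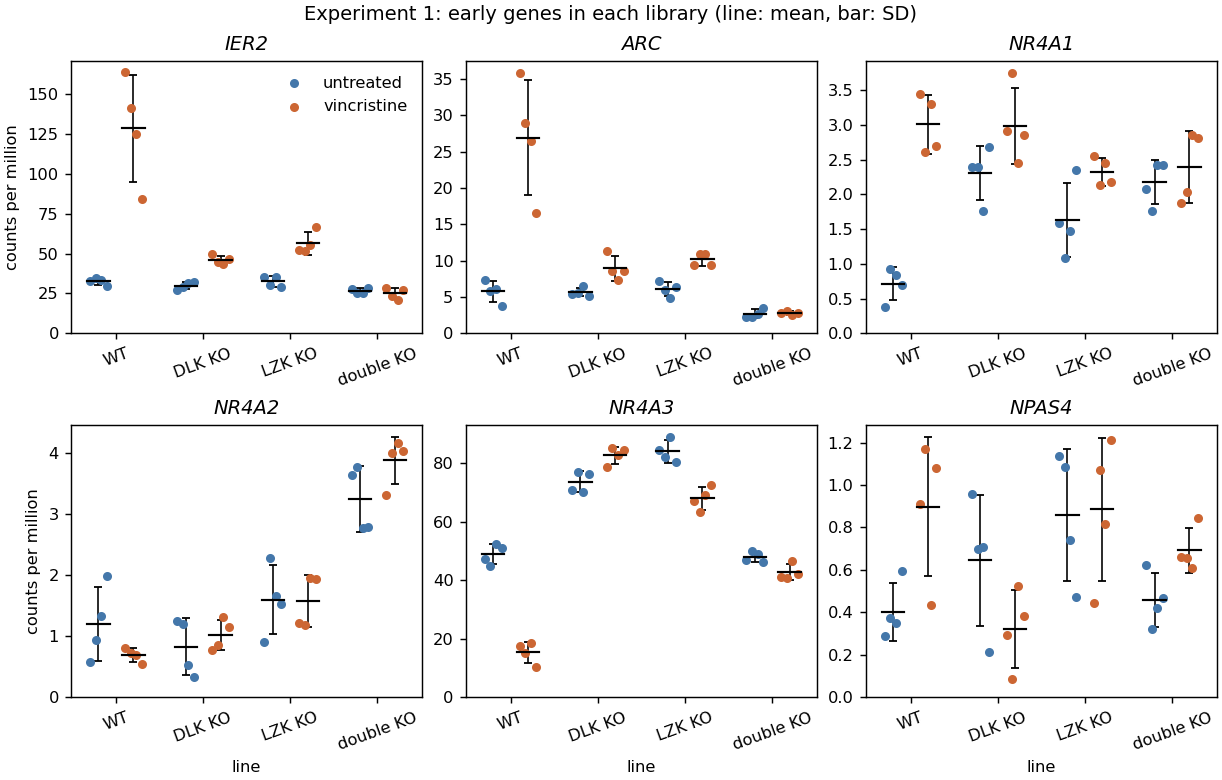
CPM of ARC, IER2, NPAS4 and the NR4A genes in experiment 1 (y axes, linear scale), 1 point for each library, by line and treatment (x axis). ARC and IER2 rise in WT and stay level in the double KO, while NR4A3 falls in WT from 44.8 to 52.5 CPM to 10.5 to 18.4 CPM.

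The nuclear receptor NR4A3 (chr9:99821855-99866891, plus strand) went the other way. Untreated WT libraries held 47.4, 44.8, 52.5 and 51.0 CPM and vincristine WT libraries 17.5, 15.3, 18.4 and 10.5, a fall of 1.66 ± 0.10 on the log2 scale (adjusted p = 1.90e-16). DLK KO libraries held 70.2 to 77.2 CPM untreated and 78.6 to 85.2 with vincristine (0.17 ± 0.08, adjusted p = 0.222; 0.0321 with only these groups fitted), and double KO libraries 46.2 to 50.0 and 40.8 to 46.8 (-0.17 ± 0.09, adjusted p = 0.802). In LZK KO, NR4A3 fell from 80.4 to 89.2 CPM to 63.2 to 72.6, a change of -0.31 ± 0.09 (adjusted p = 0.0318) that passed no threshold without untreated or vincristine replicate 1, 2 or 3 (adjusted p = 0.0570 to 0.114), with no filter (0.0503) or with only these groups fitted (0.0878). The effect differed from WT by 1.83 ± 0.13, 1.35 ± 0.13 and 1.49 ± 0.13 log2 units in DLK KO, LZK KO and double KO. Untreated NR4A3 was already higher than WT by 0.59 ± 0.09 in DLK KO and 0.78 ± 0.09 in LZK KO, and not in the double KO (-0.03 ± 0.09, adjusted p = 0.823).

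Control gRNA repeated the fall of NR4A3, from 41.5, 38.6, 40.5, 42.1 and 40.7 CPM to 16.0, 15.9, 16.6, 15.2 and 15.3 (-1.36 ± 0.05, adjusted p = 2.77e-25). In ATF2 gRNA, untreated libraries held 57.0, 62.4, 62.6, 58.2 and 59.2 CPM and vincristine libraries 54.3, 57.9, 49.7 and 57.6, which overlap (-0.13 ± 0.05, adjusted p = 0.186). JUN gRNA lay between, with a fall from a mean of 55.6 to 36.5 CPM (-0.61 ± 0.05, adjusted p = 8.34e-13). The effect differed from Control gRNA by 1.24 ± 0.08 for ATF2 gRNA and 0.76 ± 0.07 for JUN gRNA. NR4A2, a paralog known for its role in dopamine neurons, also fell in Control gRNA, from 4.74, 3.70, 4.39, 4.52 and 3.84 CPM to 1.53, 1.87, 1.78, 1.91 and 1.34 (-1.33 ± 0.16, adjusted p = 5.26e-09). It fell less in JUN gRNA (-0.61 ± 0.16; difference 0.72 ± 0.23, adjusted p = 0.0226, lost without vincristine JUN gRNA replicate 5 at 0.0626 and with no filter at 0.110). In ATF2 gRNA it passed no test (mean 3.41 and 2.97 CPM, -0.20 ± 0.17), and the effect differed from Control gRNA by 1.13 ± 0.24 (adjusted p = 0.000306).

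In experiment 1 NR4A2 rested on 3 to 55 counts a library. WT stood at 0.574, 0.932, 1.33 and 1.99 CPM untreated and 0.810, 0.719, 0.695 and 0.539 with vincristine, which overlap (-0.79 ± 0.36, adjusted p = 0.0974; called at -1.003, adjusted p = 0.0343, without untreated replicate 1). The double KO held more NR4A2 than WT, 2.77 to 3.77 CPM untreated and 3.31 to 4.16 with vincristine (log2 differences 1.42 ± 0.27 and 2.47 ± 0.30). No library of the double KO overlapped with WT.

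NR4A1, also called Nur77, rose with vincristine like EGR1 but differed from it in untreated knockout lines. WT libraries held 0.382, 0.932, 0.843 and 0.695 CPM untreated (4 to 12 counts each) and 3.44, 2.61, 3.30 and 2.70 with vincristine (2.04 ± 0.25, adjusted p = 3.58e-08). Untreated DLK KO libraries held 1.77 to 2.69 CPM, LZK KO libraries 1.08 to 2.35 and double KO libraries 1.76 to 2.43, all above WT, by 1.65 ± 0.26, 1.15 ± 0.28 and 1.57 ± 0.26 log2 units. With vincristine these lines reached means of 2.99, 2.33 and 2.40 CPM, and no change passed the test (log2 0.38 ± 0.21, 0.52 ± 0.24 and 0.14 ± 0.21). The effect was smaller than in WT by 1.66 ± 0.33, 1.52 ± 0.35 and 1.90 ± 0.33 log2 units. So the untreated level of NR4A1 was higher than WT in LZK KO and the double KO, where that of EGR1 was lower.

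In experiment 2, untreated Control gRNA libraries held 1.37, 3.84, 1.05, 1.21 and 1.52 CPM of NR4A1 and vincristine ones 5.42, 5.41, 7.36, 5.08 and 6.18 (1.75 ± 0.21, adjusted p = 2.50e-09). Replicate 2 stood apart from the other untreated libraries. ATF2 gRNA libraries held 5.08 to 6.24 CPM untreated, a difference of 1.66 ± 0.21 from Control gRNA (adjusted p = 6.70e-09), and 7.61 to 10.0 with vincristine, a difference of 0.59 ± 0.20 (adjusted p = 0.0155; 0.0532 without vincristine ATF2 gRNA replicate 5). The rise within ATF2 gRNA was 0.67 ± 0.20 (adjusted p = 0.0342), called in 2 of the 9 refits without 1 library; the call was lost with untreated replicate 2, 3, 4 or 5 left out, and with vincristine replicate 2, 3 or 5 left out (adjusted p = 0.0560 to 0.0958). It was smaller than in Control gRNA by 1.07 ± 0.29 (adjusted p = 0.00500). Untreated JUN gRNA stood 0.72 ± 0.21 above Control gRNA (adjusted p = 0.0162), and 1.17 above it without untreated Control gRNA replicate 2; the call was lost without untreated Control gRNA replicate 1, 3 or 4 or untreated JUN gRNA replicate 3 (adjusted p = 0.0569 to 0.0667) and with only these groups fitted (0.109). The difference in effect between JUN gRNA and Control gRNA missed the threshold at -0.72 ± 0.28 (adjusted p = 0.0800) and was -1.17 (adjusted p = 4.53e-05) without that same Control gRNA library; it was also called with no filter (-0.76, adjusted p = 0.0452).

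NPAS4 was close to silent. In experiment 1 it had 1 to 13 counts a library, with 0.287, 0.373, 0.351 and 0.596 CPM in untreated WT and 0.912, 1.17, 0.435 and 1.08 in vincristine WT, which overlap. The rise of 1.14 ± 0.42 (adjusted p = 0.0367) was lost with no filter (0.148), with DESeq2 (0.0554) and without untreated WT replicate 1, 2 or 3 or vincristine WT replicate 1, 2 or 4 (0.0649 to 0.119). DLK KO moved the other way, from 0.215 to 0.956 CPM untreated to 0.0853 to 0.525 with vincristine (-1.01 ± 0.47, adjusted p = 0.185), and the difference in effect from WT was -2.15 ± 0.63 (adjusted p = 0.0139). In vincristine neurons NPAS4 was lower in DLK KO than in WT by 1.45 ± 0.44 log2 units (adjusted p = 0.00787). In experiment 2 it had at most 8 counts in any library and was not tested.

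**Figure D4:**
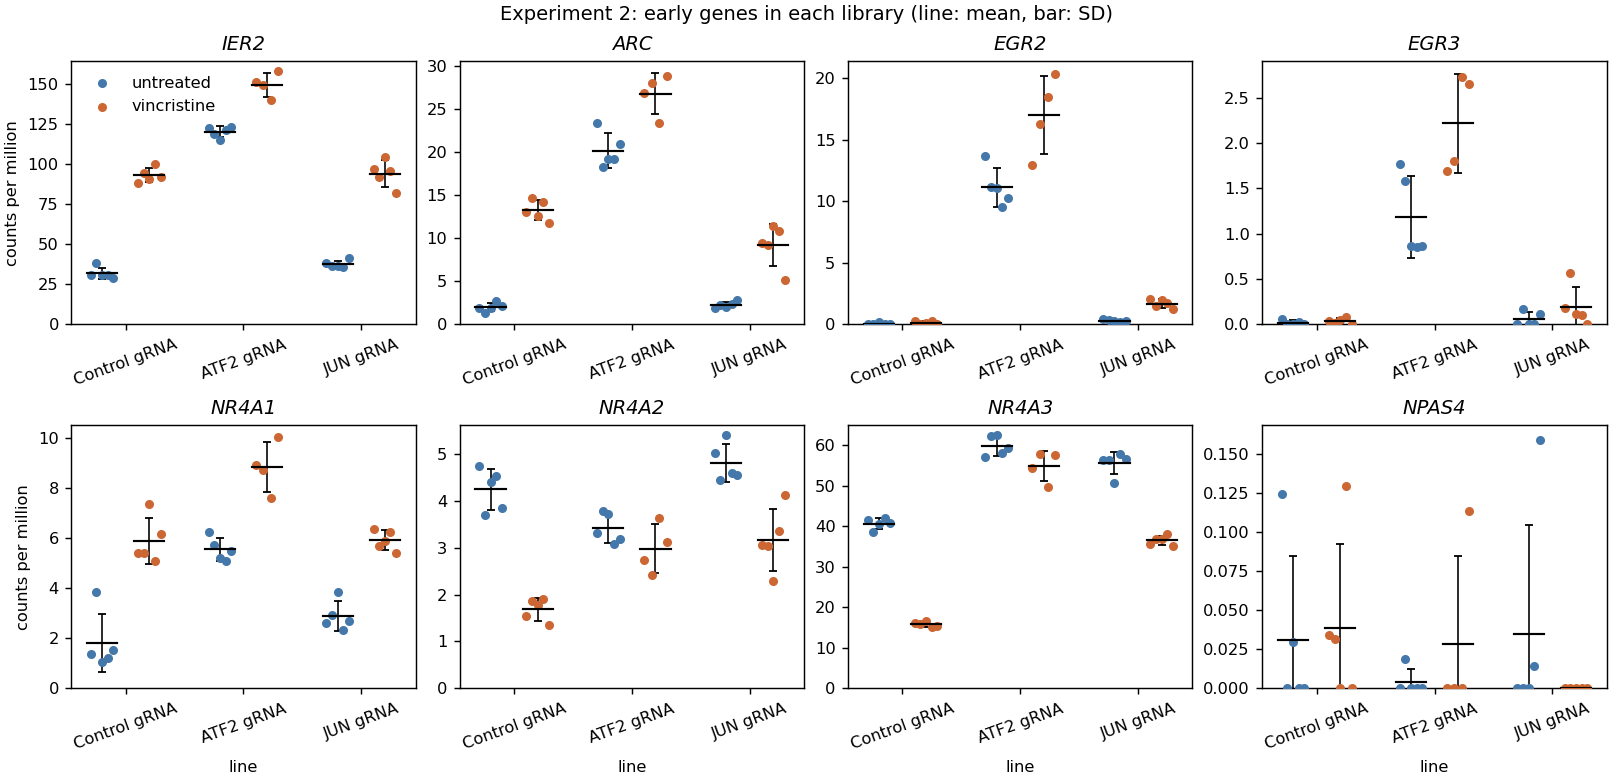
CPM of EGR2, EGR3, ARC, IER2, the NR4A genes and NPAS4 in experiment 2 (y axes, linear scale), by guide and treatment (x axis). Each point is 1 library, and NPAS4 had too few counts to test. Untreated ATF2 gRNA libraries of IER2 and ARC lie above vincristine Control gRNA libraries. NR4A3 stays at 49.7 to 62.6 CPM in ATF2 gRNA where it falls to about 15.8 CPM in Control gRNA.

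Per kilobase of exon (RPKM, CPM divided by the length of the exons in kilobases), the order of the genes depended on the group. In untreated WT the mean level of IER2 was 10.7 RPKM, that of NR4A3 7.75, that of EGR1 5.91 and that of ARC 1.93, and in untreated Control gRNA they were 10.4, 6.44, 4.42 and 0.677 RPKM. In vincristine WT EGR1 came first with 95.2 RPKM, before IER2 with 41.9, ARC with 9.00 and NR4A3 with 2.44. In the other 7 groups of experiment 1 the mean of IER2 was above that of EGR1. In ATF2 gRNA EGR1 stood at 171 RPKM untreated and 227 with vincristine, where IER2 stood at 39.1 and 48.7. Averaged over all libraries of experiment 2, EGR2 was at 1.26 RPKM and NPAS4 at 0.00659; over experiment 1 NPAS4 was at 0.188.

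Counted together, 7 of the 10 genes had enough reads to be tested in experiment 1 (EGR1, ARC, the 3 NR4A genes, NPAS4 and IER2) and 8 in experiment 2, where EGR2 and EGR3 joined and NPAS4 dropped out. A low-count gene enters such a count only through the groups where it is high, so these shares describe the genes and do not support a claim about them. Vincristine changed 6 of 7 in WT (5 higher, NR4A3 lower), where 30.2% of all 18235 genes tested were called at an adjusted p under 0.05. It changed 3 of 7 in DLK KO (EGR1, ARC and IER2, all higher), where 6.53% of all genes were called, and 4 of 7 in LZK KO (the same 3 higher and NR4A3 lower), where 3.88% were called. In the double KO edgeR called 0 of 7 and 0.0658% of all genes, and 0 of the 7 had an unadjusted p under 0.05 or were called by DESeq2. The difference from WT in the vincristine effect was called for 6 of 7 in DLK KO (19.4% of all genes), 5 of 7 in LZK KO (12.4%) and 5 of 7 in the double KO (19.4%).

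Between untreated lines of experiment 1 the count was close to that of all genes: 3 of 7 in DLK KO (34.5% of all genes), 3 of 7 in LZK KO (33.9%) and 4 of 7 in the double KO (45.7%) differed from WT. With vincristine 5 of 7 differed from WT in DLK KO (42.0% of all genes), 5 of 7 in LZK KO (42.7%) and 5 of 7 in the double KO (55.6%). EGR1, ARC and IER2 were lower than WT and NR4A3 higher in each of these 3.

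In experiment 2, vincristine changed 6 of 8 genes in Control gRNA (4 higher, NR4A2 and NR4A3 lower), where 35.3% of all 20759 genes were called. In ATF2 gRNA 2 of 7 were called (NR4A1 and IER2, higher), where 6.10% of all genes were, and in JUN gRNA 7 of 8 (5 higher, NR4A2 and NR4A3 lower), where 15.9% were. The counts over 7 leave out EGR1, which has no test against untreated ATF2 gRNA. The ATF2 gRNA count was 4 when only its 2 groups were fitted, and 1 to 3 without 1 library: it was 1, IER2 alone, without any of the 7 libraries named above for NR4A1. The LZK KO count fell to 2 without 4 of its 8 libraries, those named above for ARC, since ARC and NR4A3 are both near the threshold there. The difference in effect from Control gRNA was called for 5 of 7 with ATF2 gRNA (20.6% of all genes) and 3 of 8 with JUN gRNA (15.8%). Untreated ATF2 gRNA differed from Control gRNA in 6 of 7 (all higher, 39.9% of all genes) and untreated JUN gRNA in 5 of 8 (all higher, 11.2%). With vincristine, all 8 were higher in ATF2 gRNA than in Control gRNA (42.4% of all genes called in either direction), and 6 of 8 differed in JUN gRNA (26.7%), ARC being the lower one. The counts of ATF2 gRNA against Control gRNA, untreated and with vincristine, were partly fixed by selection. EGR1, left out of the untreated count, was chosen for its level with ATF2 knockdown. EGR2 and EGR3 were nearly silent in Control gRNA. They had enough counts through the groups where they were high, for EGR3 mainly the ATF2 gRNA groups.

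**Figure D5:**
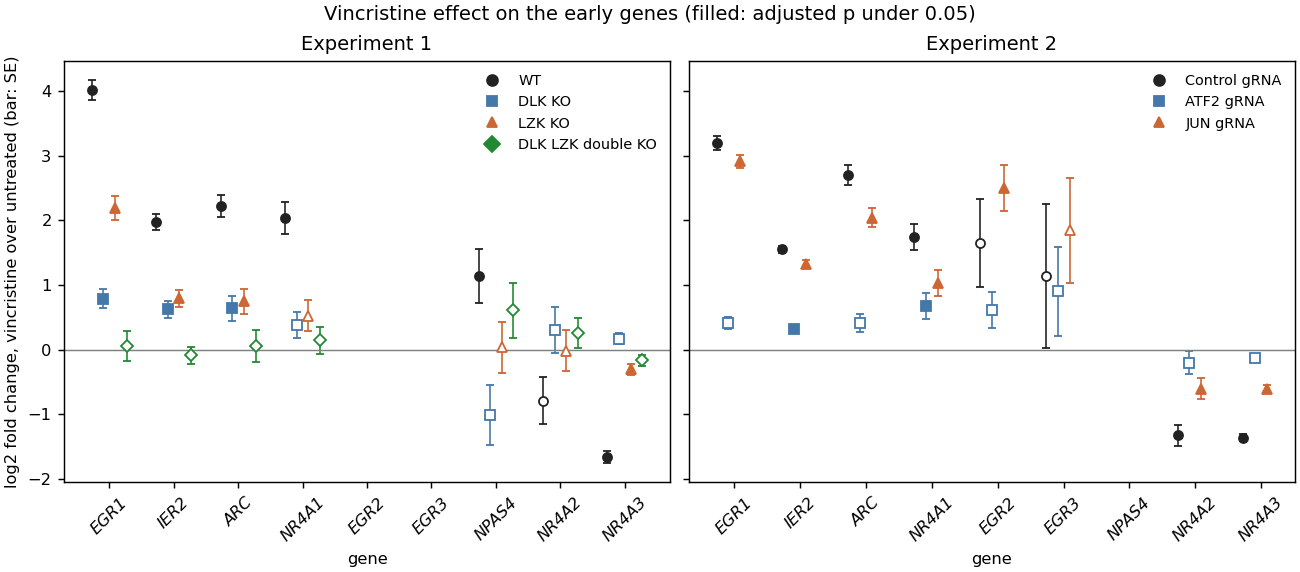
Log2 fold change with vincristine of each early gene tested (x axis, bars for 1 SE) in each line or guide group. Filled points passed an adjusted p of 0.05, and open points did not or, for EGR1 in ATF2 gRNA, had no test. EGR1 runs from 4.01 in WT to 0.06 in the double KO, and the ATF2 gRNA points lie between -0.20 and 0.67 for the NR4A genes, ARC, IER2 and EGR1.

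Across libraries the genes fell into those that tracked EGR1 and those that did not. Pearson's r of log2 CPM with EGR1 over the 32 libraries of experiment 1 was 0.91 for ARC, 0.90 for IER2, 0.30 for NR4A1, 0.10 for NPAS4, -0.51 for NR4A3 and -0.70 for NR4A2. By rank, Spearman's rho there was 0.86 for ARC, 0.83 for IER2, 0.50 for NR4A1, 0.09 for NPAS4, 0.07 for NR4A3 and -0.73 for NR4A2. So the negative value of NR4A3 was not seen by rank. Over the 29 libraries of experiment 2 Pearson's r was 0.96 for IER2, 0.93 for ARC, 0.88 for EGR2 and 0.87 for NR4A1. It was 0.81 for EGR3, 0.14 for NR4A3 and -0.39 for NR4A2, and by rank all kept their sign. ARC and IER2 had an r of 0.94 and 0.97 with each other. These values describe libraries that share groups and treatments, and carry no p. Those of experiment 2 include the untreated ATF2 gRNA libraries for whose level EGR1 was chosen.

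Among all other genes with a mean of at least 1 on the log2 CPM scale, GPR50, an orphan receptor related to melatonin receptors, had the pattern most like EGR1 in both experiments (r of 0.98 over 32 libraries and 0.99 over 29). KC877982.1, a long noncoding transcript just past GPR50 on the same strand of chromosome X, was among the 5 most alike in both (0.96 and 0.99). The others were GADD45A (0.98), SHMT2 (0.97) and CHAC1 (0.96) in experiment 1 and SPTB (0.97), PTGS1 (0.96) and HOMER1 (0.96) in experiment 2. The likeness in experiment 2 rests in part on the untreated ATF2 gRNA libraries used for the choice of EGR1. GPR50 went from a mean of 15.1 CPM in untreated to 163 in vincristine WT and stood at 2.80 and 2.61 in the double KO. In experiment 2 it went from 30.3 to 334 CPM in Control gRNA and from 99.0 to 573 in JUN gRNA, and stood at 794 and 1095 in ATF2 gRNA.

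The early genes were set beside related lists. FOS, the partner of JUN in AP-1, went from a mean of 2.12 to 16.0 CPM in WT (2.91 ± 0.16) and stood at 4.37 and 5.39 in DLK KO, 2.52 and 2.71 in LZK KO and 2.19 and 2.58 in the double KO. In experiment 2 FOS rose from 2.19 to 5.99 CPM in Control gRNA, from 5.91 to 10.6 in ATF2 gRNA and from 3.82 to 10.5 in JUN gRNA. Untreated ATF2 gRNA and vincristine Control gRNA were thus about level for FOS, where EGR1 was higher in the first. Of the list of 24 other early genes, 14 were higher and 1 lower of 19 tested in WT with vincristine (30.2% of all genes called), from the stress factor ATF3 (3.98 ± 0.11) to MYC (-0.73 ± 0.06). In Control gRNA 13 of 21 were higher and 1 lower (35.3% of all genes called), from ATF3 (3.48 ± 0.07) to IER5 (-0.50 ± 0.07). Untreated ATF2 gRNA against Control gRNA gave 7 higher and 7 lower of 21 (39.9% of all genes called), from CSRNP1 (3.26 ± 0.07) to MAFF (-2.40 ± 0.20). Vincristine ATF2 gRNA gave 5 higher and 11 lower (42.4% of all genes called).

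Of the 7 corepressors and dimer partners of EGR and NR4A factors, NAB2, which EGR1 induces and which represses EGR1 activity, had the highest fold change in untreated ATF2 gRNA against Control gRNA. NAB2 went from a mean of 12.8 to 32.0 CPM in WT with vincristine (1.32 ± 0.14), from 10.2 to 9.33 in the double KO, from 20.5 to 36.5 in Control gRNA (0.83 ± 0.07) and from 30.6 to 107 in JUN gRNA (1.81 ± 0.06). In ATF2 gRNA NAB2 stood at 178 CPM untreated and 231 with vincristine, above Control gRNA by 3.12 ± 0.07 and 2.66 ± 0.07. Its exons overlap the antisense gene STAT6. In untreated ATF2 gRNA, where 39.9% of all genes were called, 3 of this list were higher and 2 lower, RXRA being lowest (-0.80). Of the 10 genes that ERK signalling induces, most of them to restrain it, 6 were higher and 4 lower in the same contrast, from DUSP6 (1.52 ± 0.05, 77.4 to 221 CPM) to ETV5 (-1.16). Of the 14 regulators upstream of early genes, 6 were higher and 2 lower there, from MEF2C (1.22) to ELK3 (-1.01). In WT, where vincristine changed 30.2% of all genes, 4 of the ERK genes were higher and 3 lower (ETV5 1.33, ETV4 -0.67). The regulators, with 3 higher and 2 lower of 14 (MEF2A 0.85, SRF -0.74), were called about as often as all genes.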

How the data were processed

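RNA was selected for poly(A) tails and made into stranded libraries, per the labels' protocols. Per the submitters' processing notes, the tools were cutadapt 3.4, STAR and featureCounts of Subread 2.0.1, on GRCh38; the strand setting and whether duplicates were counted are not given in the sources used here. The authors deposited 1 table of raw counts per gene for each experiment, with 58440 gene identifiers and 61 libraries in all. Of the identifiers, 58320 had a symbol through GENCODE 29.

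From these counts, edgeR 4.0.16 (R 4.3.3) fitted all groups of an experiment together (filterByExpr, TMM scaling, robust quasi-likelihood test), which left 18235 and 20759 genes. A gene was called at a Benjamini-Hochberg adjusted p under 0.05 over all genes tested. Adjusted p-values without another name come from this test; each SE was taken from the log2 fold change and its F statistic. The fits were tested on simulated counts. Comparisons within an experiment share control libraries.

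Text and lists cover all 10 genes, the targeted genes, FOS, and the highest and lowest called gene of each list with a mean log2 CPM of at least 0 in the comparisons described; likeness used log2 CPM with a prior count of 2. The genes and lists were chosen with earlier results of these data known. Promoter windows were read from RefSeq tables of GRCh38.p14. Alternatives were DESeq2 1.42.0 and its size factors, keeping every gene, keeping those with a mean of at least 1 CPM, a replicate block, fitting only the groups in the comparison, and omitting each library in turn. The labels name no batch, so none was modelled. Counting intervals cover counting error only.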

Additional observations from a re-analysis of the deposited data

Results flagged for a closer look

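Among groups of 4 or 5 libraries with a mean of at least 10 counts, 89 were examined for a library far from the rest. The rule flagged 4. Chance gives about 1 in 20, or 4.45 flags, so 4 is no more than chance gives. EGR1 in vincristine JUN gRNA was 224 CPM in replicate 5 and 302 to 330 in the others. IER2 in untreated Control gRNA was 38.2 CPM in replicate 2 and 29.0 to 30.9 in the others. NR4A1 in the same library was 3.84 CPM, with 1.05 to 1.52 in the others. NR4A3 in untreated JUN gRNA was 50.8 CPM in replicate 3 and 56.3 to 57.7 in the others.

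The effect of vincristine differed from that of WT, by the interaction term of the edgeR model, for 16 pairs of gene and line. In DLK KO the log2 difference was -3.22 for EGR1, -1.58 for ARC, -1.66 for NR4A1, 1.83 for NR4A3, -2.15 for NPAS4 and -1.35 for IER2. In LZK KO it was -1.82 for EGR1, -1.47 for ARC, -1.52 for NR4A1, 1.35 for NR4A3 and -1.18 for IER2. In the double KO it was -3.96 for EGR1, -2.16 for ARC, -1.90 for NR4A1, 1.49 for NR4A3 and -2.06 for IER2.

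Against Control gRNA, ATF2 gRNA differed by -2.29 for ARC, -1.07 for NR4A1, 1.13 for NR4A2, 1.24 for NR4A3 and -1.23 for IER2. JUN gRNA differed by -0.66 for ARC, 0.72 for NR4A2 and 0.76 for NR4A3. These differences share the WT or the Control gRNA libraries.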

How the results depend on the processing

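Under 6 settings other than leaving out a library, 148 of 163 gene values kept direction and call. Some settings lacked some values, and a missing value counts as kept here. The filter at a mean of 1 CPM gave 141 values, fitting only the groups compared 143 and DESeq2 155. The counts of called early genes stayed within 1.5 times, except the vincristine effect in ATF2 gRNA. That count was 4 where only its groups were fitted (the estimate of spread then rests on fewer samples). Values near 0 changed sign: NR4A1 in vincristine DLK KO against WT to 0.00611 with no filter; NR4A1 in vincristine JUN gRNA against Control gRNA to -0.0162 with no filter, -0.0141 with the 1 CPM filter, -0.00311 with only these groups and -0.00035 with DESeq2; IER2 in the same contrast to -0.0107 with no filter and -0.0089 with the 1 CPM filter. The cause was not tested.

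Leaving out each library in turn, 127 of 163 gene values kept direction and call throughout. Called genes ranged from 2 to 4 in LZK KO and from 1 to 3 in ATF2 gRNA. Sign changes, all in values that passed no test, were -0.16 to 0.12 and -0.0944 to 0.185 for ARC in untreated DLK KO and LZK KO against WT, -0.0486 to 0.233 for EGR1 and -0.0289 to 0.221 for ARC with vincristine in the double KO, -1.94 to 1.23 for EGR2 and -0.65 to 1.73 for EGR3 in the JUN gRNA difference in effect, -1.60 to 0.21 for EGR3 in that of ATF2 gRNA, -0.0864 to 0.0300 for IER2 in untreated LZK KO, -0.0314 to 0.0548 for IER2 and -0.0410 to 0.101 for NR4A1 in vincristine JUN gRNA, -0.29 to 0.20 for NPAS4 in vincristine LZK KO and -0.15 to 0.26 for its effect there, -0.154 to 0.0839 for NR4A1 in vincristine DLK KO, -0.20 to 0.19 for the NR4A2 effect in LZK KO, and -0.0859 to 0.0156 for NR4A3 in the untreated double KO.

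Same-numbered replicates did not deviate together (median r of 0.000663 over 112 pairs in experiment 1 and -0.0042 over 70 in experiment 2; 5 of 32 and 2 of 29 libraries were closest to their own number). A replicate block moved 0 of 22 counts beyond 1.5 times and ended 1 call, EGR3 in vincristine JUN gRNA (2.01). EGR2 to EGR4 and NPAS4 are limited by depth.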

Other observations

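Genes that activity induces later, such as the neurotrophin BDNF, were not described above. Of the 16 listed, untreated ATF2 gRNA held 9 higher and 1 lower than Control gRNA, from BDNF (3.25 ± 0.13, mean 1.66 to 16.0 CPM) to the neuropeptide gene ADCYAP1 (-0.29), where 39.9% of all genes were called. With vincristine 8 were higher and 3 lower (42.4% of all genes called), from BDNF (3.09) to the stress gene GADD45B (-3.18). In WT vincristine raised 6 of 13 and lowered 1, from GADD45B (2.61) to NRN1 (-0.51), where 30.2% of all genes were called, and in Control gRNA it raised 6 of 14 and lowered 5, from GADD45B (3.87) to the convertase gene PCSK1 (-0.82), where 35.3% were called.

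The ATF2 transcript, not targeted in experiment 1, had a mean of 71.0 CPM in untreated DLK KO and 65.6 in vincristine DLK KO, against 141 and 136 in WT (untreated difference -0.99 ± 0.11 by edgeR). EGR1 in untreated DLK KO had a mean of 25.4 CPM, and a link between these transcripts was not tested.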
